A study of Mus musculus with 9 samples.

Results

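The flanks described here are the stretches of mouse chromosome 7 that lie 2 to 10 Mb on either side of the contact peak of the Dbp locus. They were taken by position alone, as all array probes that start from 35250001 to 43250000 (the centromere-proximal, or proximal, flank) or from 47250001 to 55250000 (the distal flank). The coordinates are 1-based and those of the deposited files, whose genome build was not given in the sources used here, so no genes or sequences were assigned to them. The rule found 2152 of the 384942 probes of each array, 946 in the proximal and 1206 in the distal flank, out of 19355 on chromosome 7. Distances are counted from position 45250000, the midpoint between the flanks, which stands for the peak in the text and figures. The position of the peak itself was not measured here.

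Chromosome conformation capture-on-chip (4C) records which stretches of DNA lie close enough to one chosen locus, the viewpoint, to be crosslinked and ligated to it. Contact frequency in such data is highest beside the viewpoint and falls with distance along the chromosome, and farther contacts tend to come in separate stretches with little signal between them. Dbp, a transcription factor gene, is transcribed in a daily rhythm that the circadian clock controls. Bmal1 is a core clock gene whose product activates transcription, and cells without it lose the rhythm.

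The cells were mouse embryonic fibroblasts, cultured from embryos of embryonic day 13 on a C57BL/6 background, treated with dexamethasone for 2 h and harvested at the stated circadian time (CT). Wild-type (WT) line 1 was harvested at CT22, CT26, CT30, CT34 and CT46. A Bmal1-/- line and a second, independent wild-type line (line 2) were each harvested at CT22 and CT34 only. Every line and time had 1 array, 9 in all. Cells of line 1 and of the Bmal1-/- line derived from sibling mice and were grown in medium with NCS, heat-inactivated FBS and amino acids. Line 2 came from a cross of heterozygous mice of another stock and was grown in medium with FBS. The genotype is thus represented by 1 line, and genotype and line cannot be told apart. Line 2 arrays have names with 24 and 36 instead of 22 and 34, and the names of WT line 1 CT26 and both Bmal1-/- arrays follow a style that the other arrays do not share. What either stands for was not given in the sources used here. Lines are separate cultures, but arrays of 1 line differ in time, so the SDs given over line 1 run over 5 times.

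Each value is the log2 ratio of 4C DNA over genomic DNA of the same cells at 1 probe of 59 nt, centred here on the median of its array. The arrays differed in scale, which bears on every comparison between lines. The 95th percentile over probes off chromosome 7 was 1.64 to 2.07 in line 1, 2.16 and 2.73 in Bmal1-/- at CT22 and CT34, and 0.51 and 0.52 in line 2. A probe above that percentile of its own array is called high here, and the share of high probes is therefore a measure that does not depend on this scale. It was 4.99% off chromosome 7 in line 1.

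The flanks were covered unevenly. Neighbouring probes started a median of 5519 bp apart in the proximal and 4920 bp apart in the distal flank. The proximal flank had a stretch of 760674 bp without a probe, from 38264824 to 39025498, whereas the widest interval in the distal flank was 55889 bp. In windows of 100 kb with at least 5 probes, the distal flank filled all 80 windows, and the proximal flank filled 69 of 80, with 7 windows empty and 4 too sparse. Nothing is known here of contacts in those 11 windows.

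The signal of the proximal flank lay well below that of the chromosome beyond it. In line 1 the mean log2 ratio over its 946 probes was 1.07, 1.06, 1.15, 1.22 and 1.18 at CT22, CT26, CT30, CT34 and CT46. It was 1.31 and 1.67 in Bmal1-/- and 0.49 and 0.43 in line 2 at CT22 and CT34. Both Bmal1-/- arrays were above all line 1 arrays, and both line 2 arrays were below them. Over all of chromosome 7 beyond 10 Mb, the mean was 1.34 in line 1, 1.49 in Bmal1-/- and 0.29 in line 2. The flank means by line were 1.13, 1.49 and 0.46. Against that wider stretch the flank was thus lower in line 1, alike in Bmal1-/- and higher in line 2.

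Beyond the proximal flank, 10 to 20 Mb from the peak, the mean log2 ratio rose again in all lines. It was 2.21 ± 0.11 in the line 1 arrays (SD, n = 5), 2.32 ± 0.17 in the Bmal1-/- arrays (SD, n = 2) and 0.62 ± 0.059 in the line 2 arrays (SD, n = 2). The proximal flank was lower than this outer stretch on every array, by -1.13 to -0.99 in line 1, by -0.89 and -0.78 in Bmal1-/- and by -0.09 and -0.23 in line 2. The mean difference was -0.82 ± 0.39 (SD, n = 9 arrays; exact sign-flip permutation test, two-sided, p = 0.00391, the smallest that 9 arrays allow). A dip over both sides together was known from earlier results of these data before the sides were tested apart. This p-value is thus no independent support for a dip. Arrays of 1 line share their cells, and over the 3 line means the difference was -0.69 with p = 0.25 (exact, n = 3), the smallest that 3 values allow.

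The distal flank did not form the same dip. Its mean log2 ratio in line 1 was 0.88, 0.86, 0.93, 0.96 and 0.96 at CT22, CT26, CT30, CT34 and CT46, with 1.02 and 1.24 in Bmal1-/- and 0.41 and 0.39 in line 2. The stretch 10 to 20 Mb away on this side had 0.76 ± 0.041 in the line 1 arrays (SD, n = 5), 1.06 ± 0.17 in the Bmal1-/- arrays (SD, n = 2) and 0.24 ± 0.023 in the line 2 arrays (SD, n = 2). The distal flank was above it on every array, by 0.06 to 0.20 and on average by 0.14 ± 0.043 (SD, n = 9; exact sign-flip permutation test, two-sided, p = 0.00391). Over the 3 line means it was 0.13 (exact p = 0.25).

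The sign on the distal side depended on where the flank was taken to begin. From 5 Mb outwards, the distal side was below the stretch at 10 to 20 Mb on all 9 arrays, by -0.17 on average (exact sign-flip permutation test, two-sided, p = 0.00391). Arrays of 1 line share their cells, and this difference was not tested over the line means. It was small in line 2, with 0.22 ± 0.020 against 0.24 ± 0.023 (SD, n = 2). In line 1 it was 0.57 against 0.76, and in Bmal1-/- 0.77 against 1.06. The low signal of the distal side was thus in its outer part: in line 1 the mean log2 ratio was 1.52 ± 0.072 at 2 to 5 Mb but 0.57 ± 0.029 at 5 to 10 Mb (SD, n = 5). On the proximal side the order was the opposite, with 0.89 ± 0.10 at 2 to 5 Mb and 1.25 ± 0.060 at 5 to 10 Mb. Of these 2 classes, the lower in line 1 was therefore the inner one on the proximal side and the outer one on the distal side. In steps of 1 Mb there was no steady course. On the proximal side line 1 had 1.55 at 2 to 3 Mb, 0.63 at 4 to 5 Mb and 0.71 at 8 to 9 Mb. On the distal side it had 0.98 at 2 to 3 Mb, 0.45 at 5 to 6 Mb and 1.39 at 6 to 7 Mb.

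**Figure D1:**
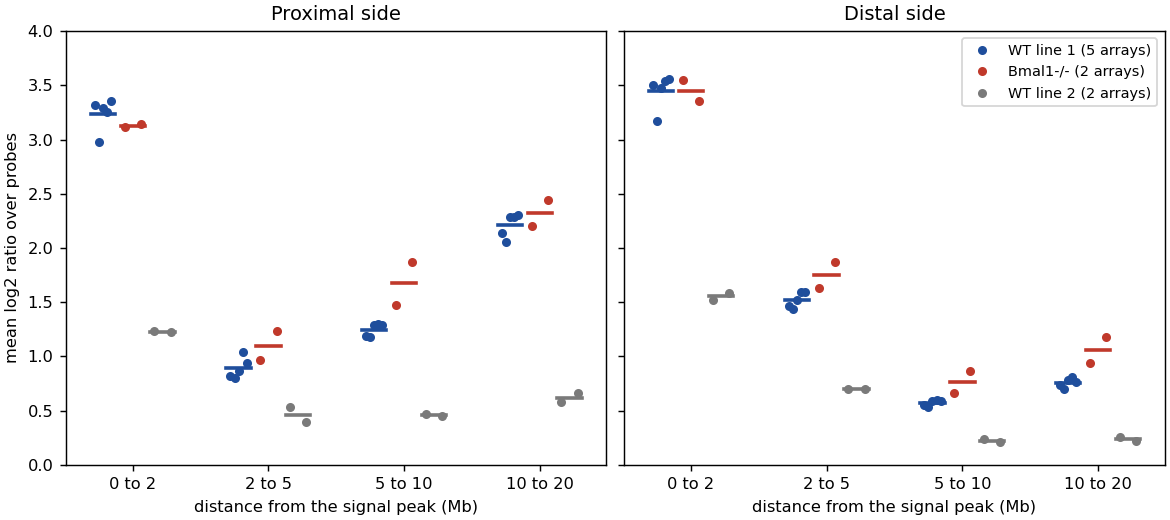
Mean log2 ratio of 4C over genomic DNA (vertical axis) in 4 distance classes from the signal peak (horizontal axis, Mb), proximal side left and distal side right; each point is 1 array and each bar the mean of a line. On the proximal side the class from 2 to 5 Mb is the lowest in line 1 (0.89) and Bmal1-/- (1.10), on the distal side the class from 5 to 10 Mb is the lowest in all 3 lines (0.57 in line 1).

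Bmal1-/- kept this order, with 1.10 ± 0.19 and 1.67 ± 0.28 on the proximal side and 1.75 ± 0.18 and 0.77 ± 0.15 on the distal side (SD, n = 2) at 2 to 5 Mb and 5 to 10 Mb. Line 2 kept it on the distal side, with 0.70 ± 0.0014 and 0.22 ± 0.020. Its 2 classes on the proximal side did not differ beyond the spread of its arrays, with 0.46 ± 0.095 and 0.46 ± 0.016 (SD, n = 2). Taken whole, the distal flank was below the proximal flank on every array, by -0.26 to -0.18 in line 1, by -0.30 and -0.43 in Bmal1-/- and by -0.08 and -0.04 in line 2. The mean difference was -0.21 ± 0.11 (SD, n = 9; exact sign-flip permutation test, two-sided, p = 0.00391), and over the 3 line means -0.21 (exact p = 0.25).

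The share of high probes gave a similar order between the flanks on a scale shared by the lines. It was 30.2% ± 1.58 in the proximal and 25.4% ± 1.13 in the distal flank in line 1 (SD, n = 5). In Bmal1-/- it was 29.2% and 30.0% in the proximal and 24.2% and 23.8% in the distal flank at CT22 and CT34. Line 2 had 25.3% ± 1.49 and 22.4% ± 0.117 (SD, n = 2). For comparison, the rest of chromosome 7 beyond 10 Mb had 35.7% ± 1.04 in line 1 and 17.3% ± 2.21 in line 2. A single array of the proximal flank had an exact Clopper-Pearson 95% interval of, for example, 25.6% to 31.4% at line 1 CT22, which covers counting error only.

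How line 2 compared with line 1 varied along the flanks. Between 2 and 5 Mb its share of high probes was 25.3% ± 3.98 against 23.4% ± 1.47 in line 1 on the proximal side, and 38.7% ± 0.160 against 39.8% ± 0.963 on the distal side. Between 5 and 10 Mb it was 25.2% ± 0.329 against 33.4% ± 2.26 and 12.9% ± 0.278 against 17.1% ± 1.30, and both line 2 arrays were below all line 1 arrays on either side. Within these classes there was no steady course: line 2 was higher than line 1 at 2 to 3 Mb on the distal side, with 35.0% ± 4.83 against 23.4% ± 2.23, lower at 3 to 4 Mb, with 45.0% ± 1.33 against 52.1% ± 2.33, and at 8 to 9 Mb both means were 9.92%, with SDs of 2.16 and 1.21 (n = 2 and 5). Line 2 differs from line 1 in cross, medium and ratio scale, and their part in this was not tested.

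At the level of single probes, few were high on every array. In the proximal flank 22 of 946 probes (2.33%) and in the distal flank 39 of 1206 (3.23%) were high on all 9 arrays. This share was 2.98% on chromosome 7 beyond 10 Mb and 0.009% off chromosome 7. Probes that were high on no array made up 25.1% of the proximal and 36.4% of the distal flank. They made up 31.6% of chromosome 7 beyond 10 Mb and 73.2% of the probes off chromosome 7. Most flank probes were thus high on some arrays and not on others, so contacts were described in windows.

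Within the flanks the signal was concentrated in islands. A 100 kb window was called a contact window on an array when its number of high probes exceeded the share off chromosome 7 (one-sided binomial test, Benjamini-Hochberg adjusted p under 0.05 over the windows of chromosome 7), and an island is a run of adjacent windows each called on at least 7 of 9 arrays. Of the 69 proximal windows, 23 (33.3%) met this rule, and of the 80 distal windows 20 (25.0%) did, against 46.3% of all windows of chromosome 7. The rule compares with the genome off chromosome 7: against the share on chromosome 7 beyond 10 Mb, only 2 proximal and 5 distal windows were called. On all 9 arrays, 9 proximal and 16 distal windows were called, against 20.1% on the chromosome. At most 2 arrays called 24 proximal and 46 distal windows, against 37.9% on the chromosome. Because islands were chosen by their high probes on these arrays, their levels are a description, with no test.

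**Figure D2:**
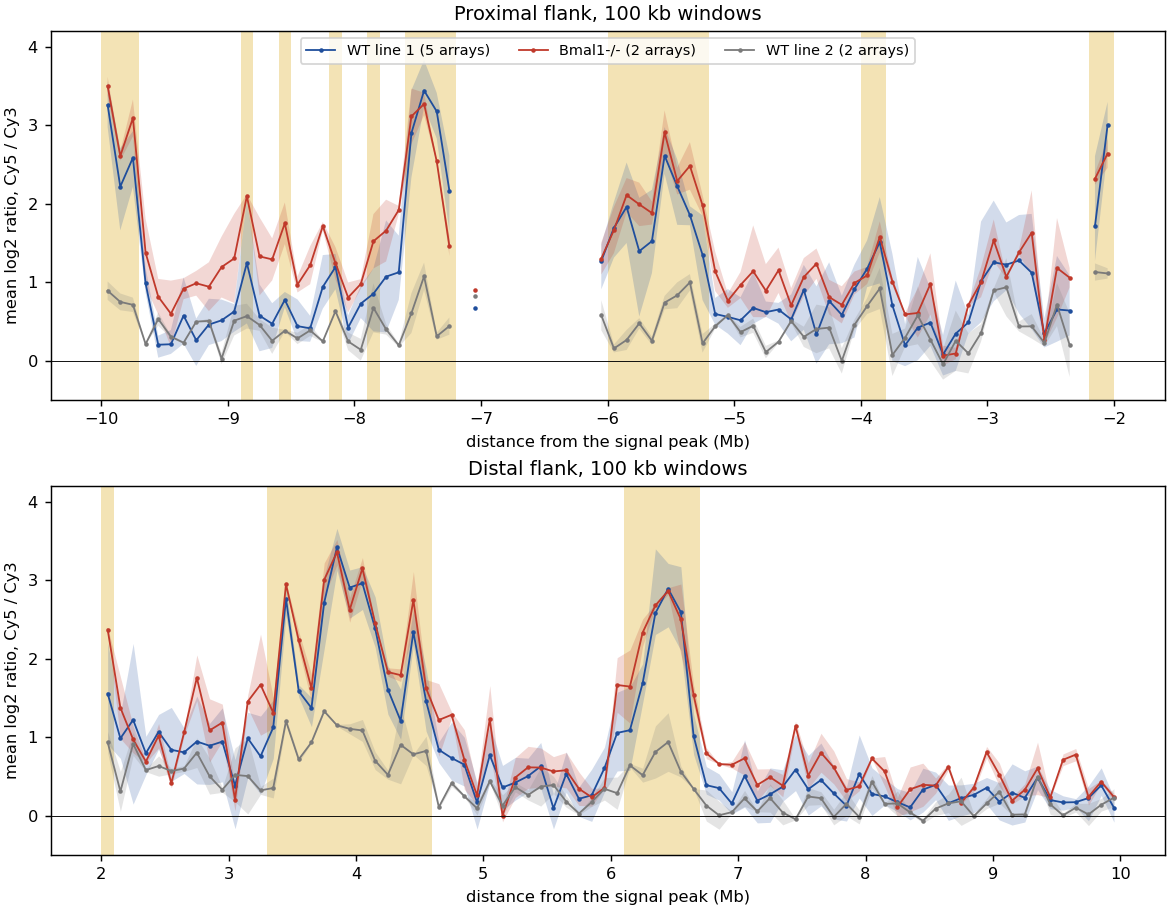
Mean log2 ratio of 4C over genomic DNA in 100 kb windows (vertical axis) against the distance from the signal peak (horizontal axis, Mb), proximal flank above and distal flank below; lines are the means of the arrays of a cell line, tints their range and yellow bands the islands. The proximal flank holds 9 islands and the distal flank 3, and the last 3300 kb of the distal flank are low in all 3 lines, with means of 0.29 in line 1, 0.50 in Bmal1-/- and 0.12 in line 2.

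The 23 proximal windows formed 9 islands, of which 4 were single windows, and the 20 distal windows formed 3 islands. Under this rule, which windows with few probes meet less readily, the distal side held fewer and longer islands. Island lengths ran from 100 to 800 kb on the proximal and from 100 to 1300 kb on the distal side.

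The proximal island richest in high probes ran from 37650001 to 38050000, 7.40 Mb from the peak. Its share of high probes was 78.0%, 78.0%, 81.4%, 72.9% and 83.1% in line 1 at CT22, CT26, CT30, CT34 and CT46, 55.9% and 57.6% on the Bmal1-/- arrays, and 37.3% and 33.9% on those of line 2 at CT22 and CT34. The 3 lines did not overlap in this share. Its mean log2 ratio was 2.90 ± 0.20 (SD, n = 5) in line 1 and 2.63 ± 0.18 (SD, n = 2) in Bmal1-/-, where the arrays overlapped, and 0.60 ± 0.048 (SD, n = 2) in line 2. The next window with enough probes towards the peak, from 38150001 to 38250000, had 5 probes, a 9-array mean of 0.75 and a call on 3 of 9 arrays.

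The outermost proximal island ran from 35250001 to 35550000, and may go on beyond the edge of the flank. It had 60.0%, 75.0%, 70.0%, 77.5% and 70.0% high probes in line 1 in the same order of times, 75.0% and 67.5% on the Bmal1-/- arrays and 42.5% and 35.0% on those of line 2. Line 1 and Bmal1-/- overlapped, and both line 2 arrays were lower. All 3 of its windows were called on all 9 arrays.

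The innermost proximal island ran from 43050001 to 43250000, which is the edge of the flank towards the peak. It had 70.4%, 66.7%, 70.4%, 74.1% and 51.9% high probes in line 1, 63.0% and 59.3% on the Bmal1-/- arrays and 55.6% and 51.9% on those of line 2. Here line 2 reached into the range of line 1, whose lowest array was CT46.

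The longest proximal island, of 800 kb, ran from 39250001 to 40050000, 5.60 Mb from the peak. Its share of high probes was 42.4%, 47.5%, 50.4%, 48.9% and 45.3% in line 1, 44.6% and 50.4% on the Bmal1-/- arrays and 25.9% and 27.3% on those of line 2. Line 1 and Bmal1-/- overlapped, and line 2 lay below both.

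Shorter proximal islands were less even between arrays. The 200 kb from 41250001 to 41450000 had 26.9% to 53.8% high probes in line 1, 23.1% and 26.9% on the Bmal1-/- arrays and 26.9% and 42.3% on those of line 2. The single window from 36350001 to 36450000, with 14 probes, had 14.3% to 64.3% in line 1, 57.1% and 35.7% on the Bmal1-/- arrays and 42.9% and 35.7% on those of line 2. In these islands the arrays of line 1 spread over more than the differences between the lines. The remaining 3 proximal islands were single windows that began at 36650001, 37050001 and 37350001, with 22.8% to 30.7% high probes over the 9 arrays.

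The largest island of either flank lay on the distal side, from 48550001 to 49850000, 1300 kb long and centred 3.95 Mb from the peak. Over its 236 probes the share of high probes was 55.9%, 58.1%, 57.6%, 57.2% and 54.7% in line 1, 57.6% and 53.0% on the Bmal1-/- arrays and 44.9% and 50.0% on those of line 2. Its mean log2 ratio was 2.14 ± 0.086 (SD, n = 5) in line 1 and 2.36 ± 0.11 (SD, n = 2) in Bmal1-/-. The line 1 arrays differed by few percentage points here, the line 2 arrays were lower, and both Bmal1-/- arrays, at 2.28 and 2.44, were above the 2.05 to 2.24 of line 1 in log2 ratio.

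The second distal island, from 51350001 to 51950000, was 600 kb long and centred 6.40 Mb from the peak. It had 47.2%, 53.7%, 58.3%, 53.7% and 54.6% high probes in line 1, 51.9% and 49.1% on the Bmal1-/- arrays and 25.0% and 32.4% on those of line 2. Line 1 and Bmal1-/- overlapped, and line 2 was lower by more than the spread of either. The third distal island was the single window from 47250001 to 47350000 at the edge towards the peak, with 10 probes and 20.0% to 60.0% high probes in line 1, 50.0% on both Bmal1-/- arrays and 60.0% and 40.0% in line 2.

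**Figure D3:**
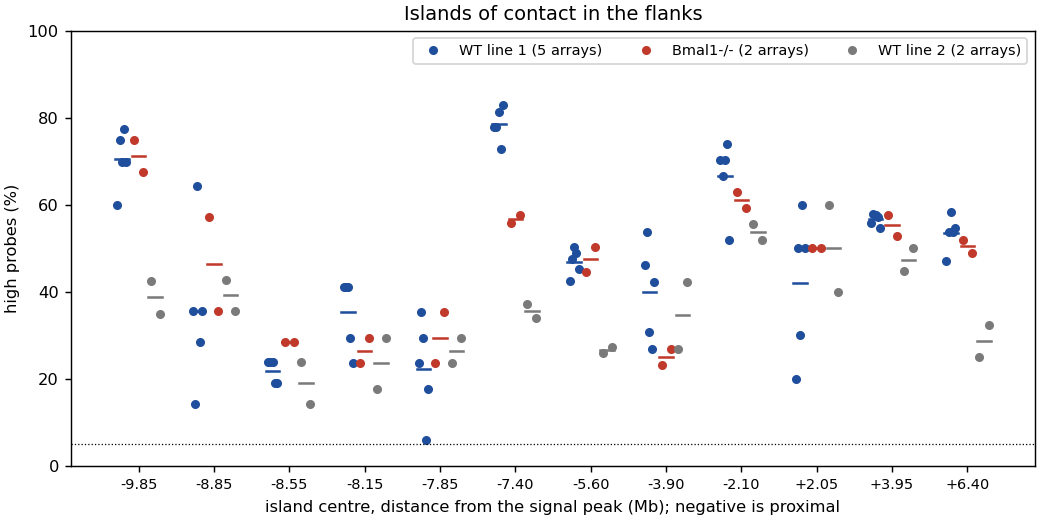
Share of high probes (vertical axis, %) in the 12 islands, ordered by the distance of their centre from the signal peak (horizontal axis, Mb, negative on the proximal side); each point is 1 array, each bar the mean of a line, and the dotted line the 5% of probes high by definition off chromosome 7. Line 2 lies below all line 1 arrays in the proximal islands at 9.85, 7.40 and 5.60 Mb and the distal ones at 3.95 and 6.40 Mb, and Bmal1-/- lies below them in the proximal island at 7.40 Mb.

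The mean log2 ratio over the 9 arrays changed abruptly at the edges of 2 proximal islands. At the outermost proximal island it stepped by -1.38 between the windows beginning at 35450001 and 35550001, and at the richest one it rose by 1.34 between those beginning at 37550001 and 37650001, each on 9 of 9 arrays. The large steps of the distal flank lay inside islands. In the largest distal island the signal rose by 1.47 from the first window, at 48550001, to the second, and in the second distal island it stepped by -1.14 before the last window, at 51850001, each on 9 of 9 arrays. At the inner edge of the largest distal island the mean went only from 0.86 to 0.99. These steps were chosen for their size.

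Between the islands lay stretches of lower signal. The longest was the outer end of the distal flank, from 51950001 to 55250000, 33 adjacent windows with 487 probes, each window called on at most 2 arrays. Its mean log2 ratio was 0.27, 0.26, 0.29, 0.32 and 0.29 in line 1 at CT22, CT26, CT30, CT34 and CT46, 0.45 and 0.54 on the Bmal1-/- arrays and 0.13 and 0.10 on those of line 2. The mean off chromosome 7 was 0.14 ± 0.027 (SD, n = 5), 0.25 ± 0.064 and 0.02 ± 0.0025 (SD, n = 2) in the same order of lines. Even this stretch was thus above the rest of the genome in each line. Its share of high probes was 9.54% ± 0.705 (SD, n = 9), and the lines did not differ in it beyond their spread, with 9.69% ± 0.814 in line 1, 9.34% ± 0.726 in Bmal1-/- and 9.34% ± 0.726 in line 2.

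Of these 487 probes, 262 (53.8%) were high on no array and 2 were high on at least 7. The 3 distal windows of lowest mean all lay in it and began at 53550001, 53450001 and 55150001, with 9-array means of 0.14, 0.15 and 0.16. Over the whole stretch the median over probes was 0.01, below the mean of 0.30 over the 9 arrays.

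The longest proximal gap was shorter, 800 kb from 41450001 to 42250000, at 3.40 Mb from the peak. It had 62 probes, a mean log2 ratio of 0.46 ± 0.14 (SD, n = 5) in line 1, 0.60 ± 0.083 in Bmal1-/- and 0.23 ± 0.18 in line 2 (SD, n = 2), and 13.3% ± 4.89 high probes over the 9 arrays. It held the proximal windows of lowest and second lowest mean, which began at 41850001 and 41950001, with means of 0.05 and 0.27. The third began at 42650001, with 0.30. As called here, the proximal flank was thus interrupted by short gaps, whereas the distal flank ended in a long one. Windows with few probes are less readily called. The window of this proximal gap that began at 42150001 had 7 probes and a line 1 mean of 1.01. The single-window islands at 36650001 and 37350001, with 21 and 17 probes, had lower line 1 means of 0.77 and 0.85. The part of probe number in the gaps was not tested.

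The contrast between islands and gaps was of like size in line 1 and Bmal1-/- on the log2 scale. On the proximal side the mean over the 360 island probes minus that over the 250 gap probes was 1.46 ± 0.081 (SD, n = 5) in line 1, 1.36 ± 0.17 in Bmal1-/- and 0.32 ± 0.10 in line 2 (SD, n = 2). On the distal side it was 1.74 ± 0.11, 1.84 ± 0.051 and 0.65 ± 0.098 over 354 island and 670 gap probes. In units of each array's own 95th percentile the proximal contrast was 0.782 ± 0.0510 in line 1, 0.557 ± 0.0227 in Bmal1-/- and 0.627 ± 0.195 in line 2. The order of the lines therefore changed with the scale, and these contrasts were given no test because islands and gaps were chosen on the same arrays.

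The pattern of windows recurred between the arrays more closely on the distal side. Across the 80 distal windows the median correlation was r = 0.910 over the 10 pairs of line 1 arrays, 0.895 over the 10 pairs of line 1 with Bmal1-/- and 0.747 over the 10 pairs of line 1 with line 2. Across the 69 proximal windows the medians were 0.849, 0.826 and 0.478. These are descriptions across neighbouring windows, which are not independent and share probes on all arrays. The correlation of a window's level with its number of probes had a median of 0.15 on the proximal and 0.263 on the distal side over the 9 arrays.

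**Figure D4:**
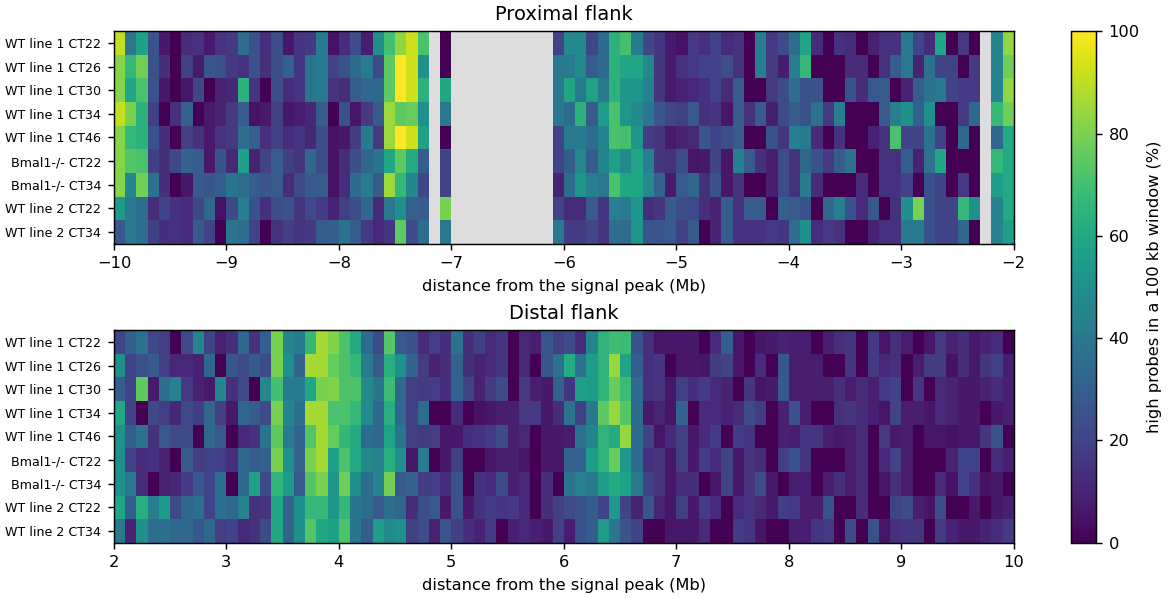
Share of high probes in 100 kb windows (colour, %) by array (rows) and distance from the signal peak (horizontal axis, Mb); grey marks windows with under 5 probes. The largest distal island is bright on all 9 rows, while the proximal islands at 9.85, 7.40 and 5.60 Mb are dimmer in line 2 than in line 1. In line 1 the island at 7.40 Mb reaches 72.9% to 83.1%. Line 2 is not dimmer throughout: at 2 to 5 Mb on the proximal side its mean share is 25.3%, against 23.4% in line 1.

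The number of contact windows in the flanks was alike in the 3 lines. Line 1 had 30 to 38 of 69 proximal windows called per array, Bmal1-/- 36 and 37, and line 2 35 and 29. On the distal side line 1 had 27 to 29 of 80, Bmal1-/- 25 and 30, and line 2 32 and 29. This likeness did not extend to the whole chromosome. Of its 1311 windows, the line 2 arrays called only 29.9% at CT22 and 37.5% at CT34. Line 1 arrays called 56.2% to 60.8% of them, and the Bmal1-/- arrays 54.8% (CT22) and 58.4% (CT34). In the proximal flank 1 window (1.45%) was called on both Bmal1-/- arrays and no line 1 array, against 0.46% on chromosome 7. Another (1.45%) was called on all 5 line 1 arrays and neither Bmal1-/- array, against 0.38%. No distal window met either rule.

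The comparison of circadian times asked whether flank contacts differ between CT22 and CT34 in WT cells. No flank window did so in the fit over all 24962 windows (limma, adjusted p under 0.05), and 0.0% of windows passed genome-wide. At an unadjusted p under 0.05, 3 of the 149 flank windows were found, all lower at CT34, against 0.244% of all windows. That direction did not hold in other fits: with line as a replicate block 23 flank windows had an unadjusted p under 0.05, 13 higher and 10 lower, against 2.17% of all windows and 15.5% of those on chromosome 7, and 0 passed after adjustment. In units of the 95th percentile there were 5 higher and 5 lower, against 280 of all 24962 windows and 71 of 1311 on chromosome 7. With 1 array left out, the median difference of the flank windows took either sign. It was 0.21 without line 2 CT34 and 0.18 without line 1 CT22, but -0.23 without line 1 CT34 and -0.15 without line 2 CT22.

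For the 3 windows of smallest p, line 1 at CT46 gives a further value at the phase of CT22. In the window from 41950001 to 42050000 the log2 ratio was 0.29 and 0.64 at CT22 and -0.13 and -0.13 at CT34 in lines 1 and 2, with a fitted difference of -0.60 (SE 0.15; limma, adjusted p = 1, n = 2 per time), and CT46 had 0.43. In that from 47450001 to 47550000 it was 1.33 and 1.06 at CT22 and 0.15 and 0.77 at CT34, with a fitted difference of -0.74 (SE 0.26; limma, adjusted p = 1), and CT46 had 1.49. In that from 50650001 to 50750000 it was 0.55 and 0.62 against 0.35 and 0.12, with a fitted difference of -0.35 (SE 0.12; limma, adjusted p = 1), and CT46 had 0.87. CT46 was on the side of CT22 in all 3, but so was CT30 with 1.02, 2.20 and 0.93, a time nearer to CT34.

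Over whole flanks, the difference between the times had no common direction. From CT22 to CT34 the mean log2 ratio of the proximal flank changed by 0.15 in line 1, -0.06 in line 2 and 0.36 in Bmal1-/-. For the distal flank these values were 0.08, -0.02 and 0.22. In line 1 and Bmal1-/- the 95th percentile off chromosome 7 was also higher at CT34, and its part in the difference was not tested. The share of high probes changed by 1.69, -2.11 and 0.85 percentage points in the proximal and by 0.58, -0.17 and -0.41 in the distal flank.

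For single windows of line 1, the SD over the 5 times had a median of 0.27 in the proximal and 0.23 in the distal flank. The absolute difference between CT34 and CT22 had a median of 0.35 and 0.20, and that between CT46 and CT22, which share a phase, 0.20 and 0.24. In the distal flank, opposite phases thus differed by no more than times of the same phase; in the proximal flank they differed by more, which was not tested.

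A rhythm of 24 h was looked for over the 7 WT arrays with a term for line. No flank window passed (limma F test, adjusted p under 0.05), and 0.0% of all windows did. Of the 149 flank windows, 21 had an unadjusted p under 0.05, against 4.85% of all windows but 14.2% of those on chromosome 7. Of these, 12 were proximal and 9 distal. The flank window of smallest p, from 36950001 to 37050000, had log2 ratios of 0.73, 1.28, 1.35, 0.68 and 0.66 in line 1 at CT22, CT26, CT30, CT34 and CT46 and 0.25 and 0.24 in line 2. It was higher at CT26 and CT30 than at the other times of line 1, with a fitted amplitude of 0.71 and a peak at 4.00 h of the cycle (limma F test, adjusted p = 0.914).

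The next 2 windows had fitted peaks in a part of the cycle in which no array was taken. That from 51550001 to 51650000, in the second distal island, had 2.45, 2.38, 2.37, 3.40 and 2.31 in line 1 and 0.48 and 1.14 in line 2, so the fit followed the CT34 array of each line (amplitude 0.67, fitted peak at 13.6 h; limma F test, adjusted p = 0.914). That from 39350001 to 39450000, in the longest proximal island, had 2.10, 1.50, 1.84, 2.53 and 1.83 in line 1 and 0.13 and 0.39 in line 2 (amplitude 0.68, fitted peak at 14.7 h; adjusted p = 0.914). In both the highest line 1 array was CT34, and both line 2 arrays were below all line 1 arrays.

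The comparison of genotypes asked whether flank contacts differ in cells without Bmal1, over the 5 line 1 and 2 Bmal1-/- arrays. The mean log2 ratio was higher in Bmal1-/- in both flanks, by 0.35 in the proximal and 0.21 in the distal flank, on 2 of 2 arrays. Both Bmal1-/- arrays were above all 5 line 1 arrays in either flank (exact permutation test, two-sided, p = 0.0952, the smallest that 2 against 5 arrays allow when the smaller tail is doubled, so the design cannot reach 0.05). Without Bmal1-/- CT34 the differences were 0.18 and 0.10, and without Bmal1-/- CT22 they were 0.53 and 0.32. Line 1 CT26, the line 1 array whose name follows the style of the Bmal1-/- arrays, had the lowest flank means of line 1 in log2 ratio. It also had the smallest 95th percentile of line 1 off chromosome 7, at 1.64. Its share of high probes was the highest of line 1 in the proximal flank, at 32.2%, and was 26.5% in the distal flank. What the name style has to do with these values was not tested.

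The size and sign of this difference depended on the scale. After quantile normalization the difference was 0.09 in the proximal flank, where both Bmal1-/- arrays stayed above line 1 (exact permutation test, p = 0.0952), and 0.02 in the distal flank (p = 0.286). Divided by each array's own 95th percentile, the proximal flank had 0.606 ± 0.0294 in line 1 (SD, n = 5) and 0.609 ± 0.00240 in Bmal1-/- (SD, n = 2), and the distal flank 0.491 ± 0.0248 and 0.462 ± 0.0118. The differences on that scale were 0.00314 and -0.0286. In share of high probes Bmal1-/- differed from line 1 by -0.613 percentage points in the proximal and -1.42 in the distal flank. The direction of the difference thus changed with the scale in both flanks.

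No flank window passed the genotype test over all 24962 windows (limma, adjusted p under 0.05), and 0.0% of all windows did. At an unadjusted p under 0.05, 47 of 149 were found, 25 of 69 proximal and 22 of 80 distal, of which 44 were higher in Bmal1-/-, against 13.4% of all windows, 13.0% in that direction, and 22.7% of those on chromosome 7. After quantile normalization the count was 28, with 17 higher and 11 lower, against 1873 of 24962 windows and 271 of 1311 on chromosome 7. After division by the 95th percentile it was 34, with 14 higher and 20 lower, against 2167 of all windows and 438 on chromosome 7. The median window difference was 0.36 in the proximal and 0.19 in the distal flank, against 0.14 on chromosome 7 and 0.09 over all windows. Without Bmal1-/- CT34 these values were 0.19, 0.07, 0.002 and 0.05.

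Both Bmal1-/- arrays were above all 5 line 1 arrays in 18 of 69 proximal and 17 of 80 distal windows, against 13.9% of all windows. They were below them in 2 proximal and no distal windows, against 2.08%. After division by the 95th percentile 6 proximal (8.70%) and 7 distal windows (8.75%) were above, against 9.52% of all windows. On that scale 11 proximal (15.9%) and 8 distal windows (10.0%) were below, against 3.71%. The share below was not counted for chromosome 7 on that scale. In the limma fit on it, 20 of 149 flank windows were lower in Bmal1-/- at an unadjusted p under 0.05. On chromosome 7 as a whole 356 of 1311 windows were, so lower windows were not particular to the flanks.

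The 3 windows of smallest p in the genotype test lay in different settings. The window from 36650001 to 36750000, a single-window proximal island, had log2 ratios of 0.87, 0.77, 0.79, 0.76 and 0.68 in line 1 and 1.48 and 2.02 in Bmal1-/- at CT22 and CT34, a difference of 0.98 with SE 0.14 (limma, adjusted p = 0.146, n = 5 and 2). The window from 54850001 to 54950000, inside the long distal gap, had 0.17, 0.21, 0.15, 0.21 and 0.11 in line 1 and 0.70 and 0.86 in Bmal1-/-, a difference of 0.61 with SE 0.090 (limma, adjusted p = 0.146). The window from 48750001 to 48850000, in the largest distal island, had 1.53, 1.51, 1.66, 1.67 and 1.57 against 2.12 and 2.35, a difference of 0.65 with SE 0.10 (limma, adjusted p = 0.146).

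In all 3 windows both Bmal1-/- arrays were above all line 1 arrays. The first and the second passed when all 9 arrays were fitted with the replicate number as a block (limma, adjusted p = 0.0483 for each), in which line 1 and Bmal1-/- share the number 1, so that it does not separate line from genotype. The third passed when window medians replaced means (limma, adjusted p = 0.0191, with a difference of 1.53). The adjusted p of the first ranged from 0.0693 to 0.291 when single arrays were left out.

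**Figure D5:**
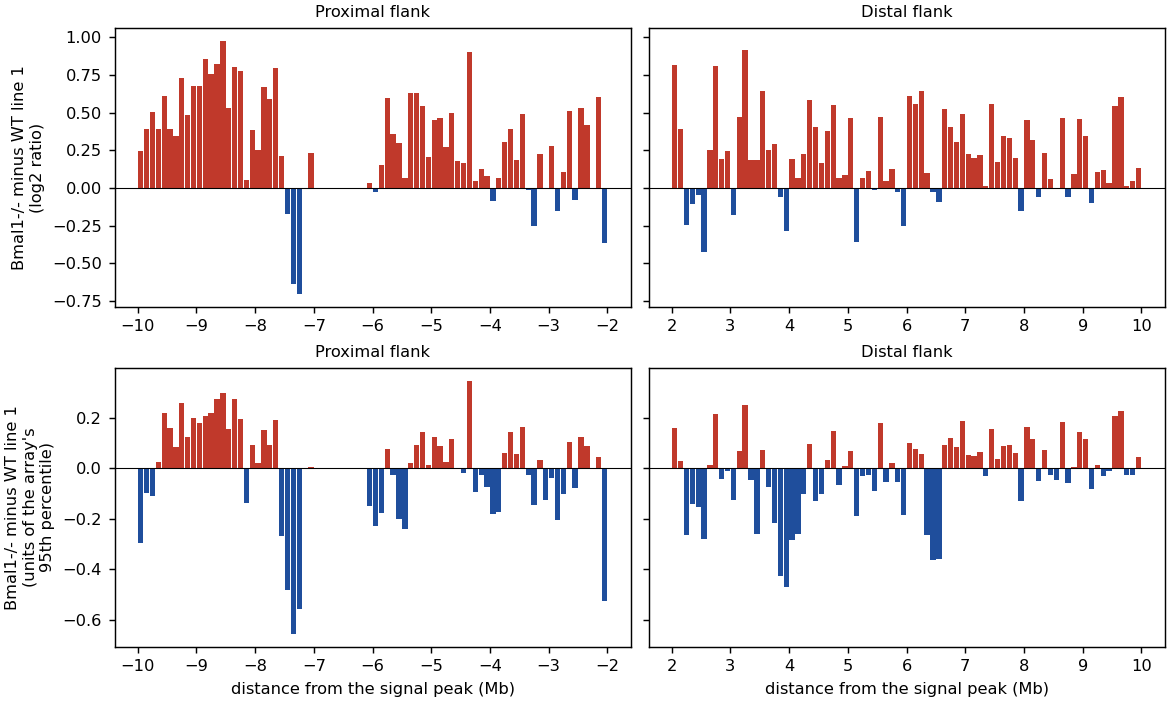
Difference of the mean of 2 Bmal1-/- arrays minus the mean of 5 line 1 arrays in 100 kb windows (vertical axis), as log2 ratio above and in units of each array's 95th percentile below, against the distance from the signal peak (horizontal axis, Mb). On the log2 scale most windows are higher in Bmal1-/- (red), with 0.98 at the window 8.55 Mb away on the proximal side; in units of the 95th percentile the richest proximal island and parts of both long distal islands are lower (blue) and the stretch from 8 to 9 Mb on the proximal side stays higher.

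The proximal stretch from 8 to 9 Mb, between the outermost and the richest island, differed on both scales. Its mean log2 ratio was 0.74, 0.73, 0.78, 0.58 and 0.69 in line 1 and 1.11 and 1.62 in Bmal1-/-. In units of the 95th percentile it was 0.287 to 0.447 in line 1 and 0.516 and 0.592 in Bmal1-/-, so that the lines did not overlap on either scale. Its share of high probes did overlap, with 12.8% to 24.4% in line 1 and 21.5% and 25.6% in Bmal1-/-. Such a separation on both scales was not particular to this stretch. It also held for the distal stretches at 8 to 9 Mb and 10 to 20 Mb and over all probes off chromosome 7. Off chromosome 7 the mean log2 ratio was 0.104 to 0.171 in line 1 and 0.205 and 0.295 in Bmal1-/-. In units of the 95th percentile it was 0.0636 to 0.0869 and 0.0948 and 0.1082. The proximal stretch was singled out after its values were seen and was given no test.

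In the genotype comparison 120 of the 149 flank windows had a higher mean log2 ratio in Bmal1-/- and the others a lower one. Elsewhere most windows were higher too: 18062 of all 24962, and 908 of the 1311 on chromosome 7. The 2 windows in which both Bmal1-/- arrays were below all line 1 arrays lay in the richest proximal island. These windows, from 37850001 to 37950000 and from 37950001 to 38050000, had mean log2 ratios of 3.18 and 2.17 in line 1 and 2.54 and 1.46 in Bmal1-/-, differences of -0.64 and -0.71. The share of high probes of the whole island was lower in Bmal1-/-, with 56.8% ± 1.20 (SD, n = 2) against 78.6% ± 3.90 (SD, n = 5). Line 1 supplied 5 of the 9 arrays by which the island was chosen, and these windows were named after their values were seen.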

How the data were processed

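The authors deposited 1 log2 ratio of Cy5 (4C DNA of the Dbp viewpoint) over Cy3 (genomic DNA cut with HindIII and Csp6I) per probe and array, written by NimbleScan and shifted by the Tukey biweight mean of the array, per the file headers. The log base is the convention of that software. Nothing on the genome build, the background or filters was given in the sources used here. Arrays give no counts, and their number, 9 without dye swap, limits the precision.

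Each array was centred on its median, and probes were averaged in 100 kb windows with at least 5 probes, on a grid shifted by 50 kb so that its edges met those of the flanks, chosen after seeing the files. Windows of the whole genome were fitted with limma 3.58.1 in R 4.3.3 (lmFit, eBayes, two-sided, Benjamini-Hochberg). The fits were WT CT22 against CT34 (4 arrays), Bmal1-/- against line 1 (7 arrays, no time term) and cosine and sine terms of 24 h with line as a term (7 WT arrays). Single values per array were compared by exact permutation or sign-flip tests. For Bmal1-/- against line 1, p-values double the smaller tail; counting absolute differences gives 0.0476 for both flanks. The first convention, that of scipy, was adopted after that value had been seen. Means per array and exact Clopper-Pearson intervals used Python 3.11.15 with scipy 1.17.1, numpy 2.4.6 and pandas 2.3.3; figures used matplotlib 3.10.9. Scripts for window tests and contact calls were tested on simulated data.

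Within WT, replicate numbers mark the cell lines and so pair CT22 with CT34 (Bmal1-/- carries number 1, as line 1 does). The differences between the lines at the 2 times correlated across windows (r = 0.749 over 24962 windows, 0.536 off chromosome 7 and 0.714 over the 149 of the flanks). The text names, on each side, the 6 islands with the highest share of high probes, the longest gap, the 3 windows of lowest mean and, per comparison, the 3 windows of smallest p, plus those stated to be chosen later. The flanks, lists and tests were chosen with earlier results of these data known, among them a dip over both sides together. Alternatives varied the scaling, window size and filter, the edge of the flank, the definition of a contact window and the arrays used.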

Additional observations from a re-analysis of the deposited data

Results flagged for a closer look

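Of 42 sets of 5 line 1 values examined, 3 had 1 array whose gap to the nearest of the others took up more of the range than the 95% critical value for 5 samples allows; chance gives about 1 in 20. In the distal stretch from 8 to 9 Mb, the CT26 array had a mean log2 ratio of 0.18, against a median of 0.28. In the proximal island from 37650001 to 38050000, CT26 was again the lowest, with 2.55 against a median of 2.95. In the window from 51550001 to 51650000, CT34 was the highest, with 3.40 against a median of 2.38. Line 1 CT26 had the smallest 95th percentile of line 1 off chromosome 7, at 1.64, and its part in the 2 low values was not tested.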

How the results depend on the processing

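The distal flank minus 10 to 20 Mb turned to -0.17 when the flank began at 5 Mb. Bmal1-/- minus line 1 turned to -0.613 and -1.42 percentage points in the proximal and distal flanks as shares of high probes, and to -0.0286 in the distal flank in units of the 95th percentile. With 1 mean per cell line, added after seeing the data, the distal minus proximal difference was -0.21, the proximal flank minus 10 to 20 Mb -0.69 and the distal flank minus 10 to 20 Mb 0.13, none below p = 0.25, the smallest exact p that 3 values allow. Contact windows on at least 7 of 9 arrays fell from 23 to 2 in the proximal and from 20 to 5 in the distal flank when chromosome 7 beyond 10 Mb was the background, and to 9 in the proximal flank when all 9 arrays were required. The genotype fit called 2 flank windows with window medians and 2 over 9 arrays with the replicate number as a block, which line 1 and Bmal1-/- share (limma), against 0. Line as a replicate block changed no call between CT22 and CT34, with 0 windows passing.

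Leaving out single arrays moved the distal minus proximal difference between -0.24 and -0.19, the proximal flank minus 10 to 20 Mb between -0.91 and -0.78 and the distal one between 0.13 and 0.15. Bmal1-/- minus line 1 ranged from 0.18 to 0.53 and from 0.10 to 0.32 in the proximal and distal flanks, and contact windows on at least 6 of the 8 arrays left from 24 to 27 and from 20 to 21. The window tests called 0 flank windows each time (limma). Of the other alternatives of these results, none changed a direction or a call. The 11 proximal windows without enough probes, the scale of line 2 and the 2 arrays of a single Bmal1-/- line limit what can be shown.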
